A study of Mus musculus with 3 samples.

Results

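Messenger RNA of chromatin modifiers and remodelers was followed in mouse metaphase II oocytes, the eggs that wait in arrest for fertilization. The genes were those of the families Hdac, Kdm, Kmt2, Setd, Smarc, Arid, Chd, Brd and Phf by symbol, with Crebbp, Atrx, Suz12, Atad2 and Nfrkb added by name. The rule found 61 of the 6104 gene symbols in the deposited table, with 106 of its 9126 transcript rows. For each gene the row with the highest mean TPM over the libraries was used, where TPM is the abundance per length scaled to 1000000 for a whole library.

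There were 3 libraries, 1 per group. The aged-sec library came from aged oocytes matured with secretome of mesenchymal stem cells from human umbilical cord, the medium these cells condition, mixed 1 to 1 with M16 culture medium. The aged library came from aged oocytes matured without it, and the young library from young oocytes matured without it. All oocytes were of the ICR stock, were taken from antral follicles as immature germinal vesicle oocytes and were matured in culture for 16 to 18 h. Each library pooled 20 oocytes from 4 mice. The labels state no age for the mice, and the treatment field names the secretome for every sample, so the groups follow the sample titles. With 1 library per group there is no replicate error, no test and no p-value, and every difference is one between libraries.

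The table lists only transcripts whose aged over young ratio was at least 1.2, so that selection alone places every gene higher in aged than in young oocytes. The same selection favours high values in the aged library, which draws aged-sec over aged ratios below 1. TPM gives shares of a library, so less of an mRNA per oocyte and more of the other mRNAs cannot be told apart. Depth is unknown. Of 14 oocyte markers 7 were listed, led by Rfpl4 and Omt2a, and together they summed to 8257 TPM in aged-sec, 8538 TPM in aged and 5888 TPM in young oocytes. Of 14 cumulus and granulosa cell markers only Fshr was listed, at 0.22, 0.55 and 0.03 TPM in aged-sec, aged and young oocytes, and none of 5 blood cell markers was listed. Markers outside the table were not analysed here.

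Chromatin modifiers act on the histones around which DNA is wound. Writers add acetyl or methyl groups, erasers such as deacetylases and demethylases take them off, readers with bromodomains or PHD fingers bind the marked tails, and remodelers use ATP to slide or evict nucleosomes. The growing oocyte builds up stores of these mRNAs, transcription is largely silent by metaphase II, and the stored messages serve the egg and early embryo, in which both parental genomes are repackaged. In the maturing oocyte many stored mRNAs gain or lose their poly(A) tail, directed by short U-rich cytoplasmic polyadenylation elements near the polyadenylation hexamer at the 3' end. The libraries here were built from SMART-Seq2 cDNA, a method that primes on poly(A).

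Because of that priming, the 3' ends of some of the genes named below are shown, as DNA of the sense strand, 5' to 3'. Each stretch holds up to 30 bases, with the polyadenylation hexamer (AATAAA or ATTAAA) or the cytoplasmic element (TTTTAT or TTTTAAT) in capitals. The stretches were read from GENCODE M21 transcripts (GRCm38) matched by RefSeq accession, for curated RefSeq transcripts only. The rows used for Nfrkb and Brd1 are predicted transcripts, so these genes are not shown.
Atad2 (chr15:58094063-58094092, minus strand): ccTTTTATtgtacattttgtatAATAAAtg
Crebbp (chr16:4081342-4081371, minus strand): gctggtgtttatAATAAAagctggtaaaac
Phf6 (chrX:52956910-52956939, plus strand): tactattcattcAATAAAtgagttctggat
Setdb1 (chr3:95323527-95323556, minus strand): taatatactttaATTAAAaaaaattaacag
Kdm1a (chr4:136550565-136550594, minus strand): tttTTTTAATatattttgagAATAAAactt
Brdt (chr5:107350698-107350727, plus strand): ttgtttcattatTTTTATcaatatagtaaa
Atrx (chrX:105797621-105797650, minus strand): agttgaaactttATTAAAtgacataagtga

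A match was found for 34 of the 61 genes and for 3647 of all 6104 symbols. In the last 100 bases, searched on the sense strand only since the element acts in RNA, TTTTAT or TTTTAAT occurred in 9 of the 34 (26.5%), against 20.8% of all matched symbols. A hexamer occurred in 24 of the 34 (70.6%), against 79.6%, and both motifs in 6 (17.6%), against 17.3%. TTTTAAT can share its last 3 letters with AATAAA. In Phf6 the element began 55 bases, and in Setdb1 46 bases, before the transcript end, outside the stretch shown. Kdm1a had a further element that began 13 bases before the end, also outside its stretch. Such a match is a description of these letters and not a functional site, and the annotated end may not be the one used in the oocyte.

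Among the 61 listed genes under the symbol rule, the summed level was dominated by Brdt. Brdt is a bromodomain protein best known from male germ cells, where it acts in spermatid chromatin. Brdt (NM_001079873) stood at 973 TPM in aged-sec, 1050.4 TPM in aged and 751 TPM in young oocytes. Of the summed TPM of the 61 genes this was 53.0% in aged-sec, 51.9% in aged and 54.7% in young oocytes. Without Brdt the genes summed to 864 TPM in aged-sec, 974 TPM in aged and 622 TPM in young oocytes. The order of the 3 most abundant genes, Brdt, Phf5a and Atrx, was the same in each library, and Kdm7a had rank 10 in each. No gene was listed at 0, but neither was any other row of the table, so this does not show that each mRNA was detected. Atad2 stood at 0.01 TPM, the smallest step of the table, in aged-sec and young oocytes. Of the 61 genes, 19 were under 1 TPM in aged-sec, 14 in aged and 25 in young oocytes.

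**Figure D1:**
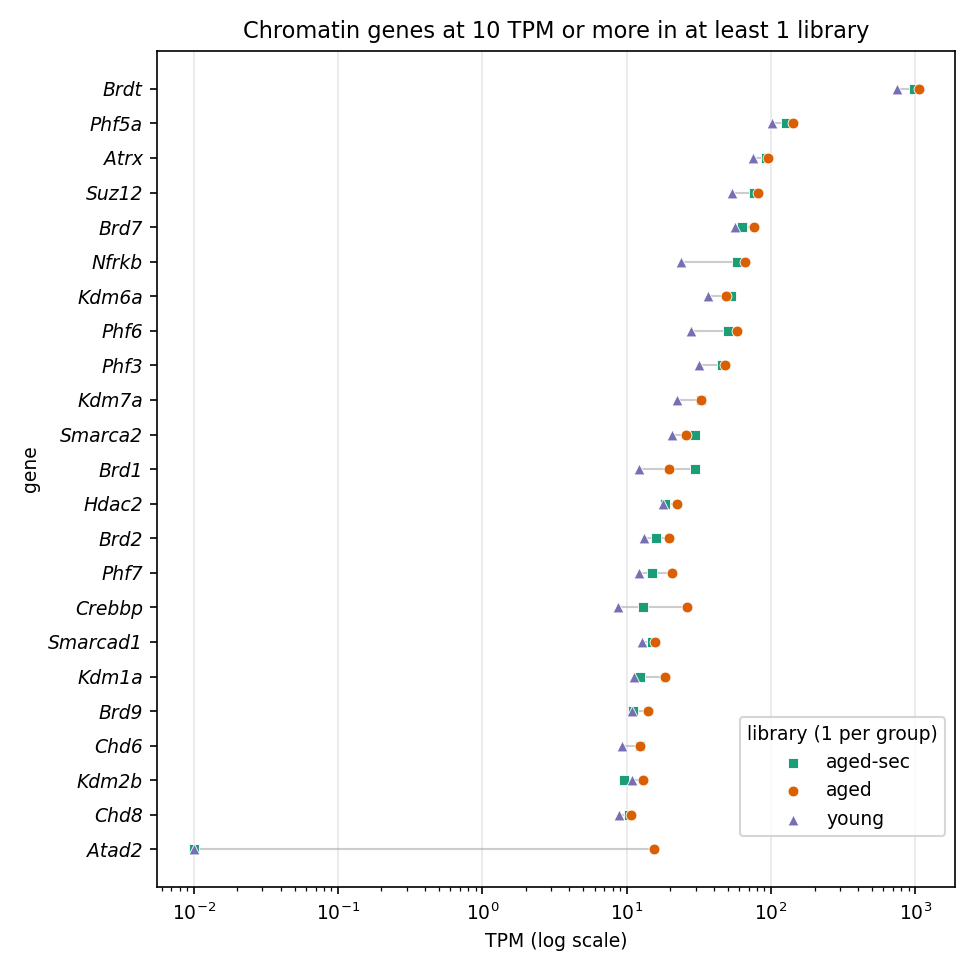
Abundance of the 23 chromatin genes that reached 10 TPM in any library, in TPM on a log axis, with 1 point per library (squares aged-sec, circles aged, triangles young). Brdt lies at 751 TPM or more in each library, most genes lie from 10 to 100 TPM, and Atad2 stands at 0.01 TPM in aged-sec and young oocytes against 15.4 TPM in aged oocytes.

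Aged oocytes were set against young ones to see how large the excess of the listed chromatin mRNAs was. A gene was called when its log2 ratio, computed after adding 0.5 TPM to both libraries, reached 1 in size and the higher of the libraries held 10 TPM or more (the size rule). In this pair 4 of the 23 genes with enough TPM were called, or 17.4%, where 15.9% of all symbols with enough TPM met it, so the share was near the background. The 4 genes were Atad2, Crebbp, Nfrkb and Phf6. Over the 48 genes that reached 1 TPM in any library the median log2 ratio was 0.57, against 0.56 over the 4320 symbols with that level. With all listed rows scaled to a common median between libraries, 1 of 24 genes was called, Atad2, where 2.61% of all symbols were. The median of the chromatin genes was then −0.16. That scaling rests on all listed rows, with a median log2 ratio of 0.78, and the scaled median over all symbols was not computed. The sign is thus not read as particular to the chromatin genes.

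Among them, Nfrkb, a subunit of the INO80 remodeling complex, stood at 66.3 TPM in aged and 23.7 TPM in young oocytes, a log2 ratio of 1.47 (predicted transcript XM_006510218). Phf6, a PHD finger protein of the nucleolus and nucleoplasm that is mutated in human leukemia, stood at 58.1 TPM in aged and 28.0 TPM in young oocytes, a log2 ratio of 1.04 (NM_027642). Crebbp, the CBP histone acetyltransferase, stood in its curated transcript at a log2 ratio of 1.53. The fourth, Atad2, is a bromodomain ATPase with a log2 ratio of 4.96, whose size is set by the 0.5 TPM added because the young value is the smallest step of the table. The annotation holds 1 mRNA for Atad2 (NM_027435).

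Aged-sec oocytes were set against aged ones to see whether these mRNAs differed with the secretome. Of the 23 genes with enough TPM, 1 met the size rule downward, Atad2, where 2.18% of all symbols did. Upward 0 of 23 met it, where 0.168% of all symbols did. At any size, 39 of the 48 genes at 1 TPM or more lay below their aged value in aged-sec oocytes (81.2%), where 73.8% of all symbols did. Atad2, Arid3b, Smarcc2, Smarcal1 and Chd2 reached 1 TPM in the aged library alone, so the filter itself placed them below aged. Kdm2a reached it in the aged-sec library alone and so had to lie above. The same filter was used for all symbols, and the difference between the shares was not tested. Of all 61 genes 47 lay below their aged value, where 72.5% of all symbols did. The median log2 ratio was −0.21, against −0.23 over all symbols. With all listed rows scaled to a common median, 21 of 49 genes lay below aged and the median was 0.063. That scaling shifts all symbols in the same direction. Their share and median after it were not computed, so these scaled values have no background. Both comparisons use the aged library, so a high aged value enters both with opposite sign.

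By position, 7 of these 48 genes were at or below the young value in aged-sec oocytes, 32 lay between young and aged, and 9 were at or above aged. The shares were 14.6%, 66.7% and 18.8%. Over all symbols at that level they were 20.3%, 53.4% and 26.2%. Genes that reached 1 TPM in the aged library alone could not be at or above aged. In aged-sec oocytes, 20 of the 48 (41.7%) lay nearer to young than to aged on the log2 scale, against 40.3% of all symbols.

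The comparison of aged-sec with young oocytes sets the treated aged egg against the young one. The size rule was met upward by 2 of 22 genes, Nfrkb (58.4 TPM in aged-sec and 23.7 TPM in young oocytes, log2 ratio 1.29) and Brd1 (29.9 and 12.1 TPM, log2 ratio 1.27), where 14.2% of all symbols met it. Both genes rest on predicted transcripts. Downward the rule was met by 0 of 22, where 0.311% of all symbols met it. The median log2 ratio over the 48 genes was 0.39, against 0.38 over all symbols. With all listed rows scaled to a common median, 0 of 23 genes met the rule upward, where 3.96% of all symbols did. The median was then 0.035, and the scaled median over all symbols was not computed. The young library is also the one on which the table was selected.

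**Figure D2:**
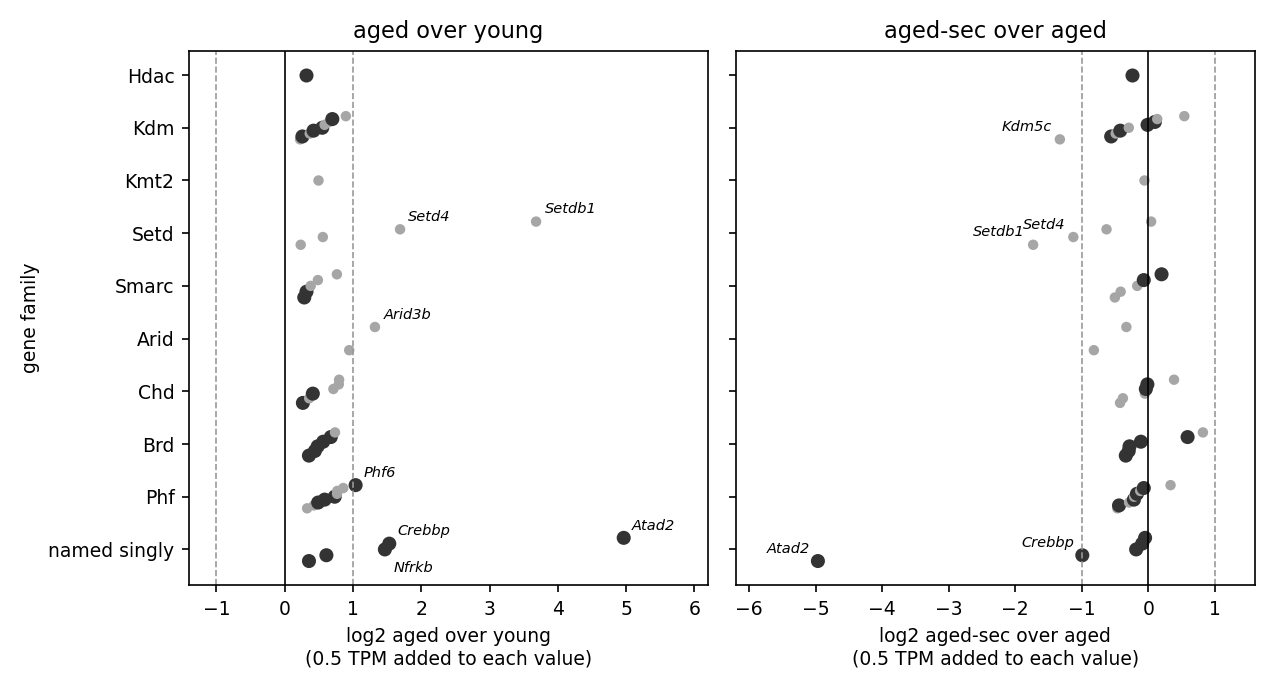
Log2 ratios of the 48 chromatin genes at 1 TPM or more, by family, with aged over young on the left and aged-sec over aged on the right; each point is a gene, dark for genes at 10 TPM or more, and dashed lines mark a log2 ratio of 1 in size. Most points lie within the dashed lines, the left panel is positive by selection, and Atad2 lies farthest out in both panels, at 4.96 and −4.96.

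Among the acetyl writers, Crebbp stood at 12.9 TPM in aged-sec, 26.1 TPM in aged and 8.70 TPM in young oocytes (NM_001025432). On this curated row the aged-sec value was nearer to young, with a log2 ratio to aged of −0.99, just inside the size limit, while on the sum of its listed rows it was nearer to aged, at −0.40 to aged and 1.13 to young. Brd1, the scaffold of an HBO1 and MOZ acetyltransferase complex, stood at 29.9 TPM in aged-sec, 19.7 TPM in aged and 12.1 TPM in young oocytes, and was highest in the aged-sec library. Its log2 ratio of aged-sec over aged was 0.59, the largest upward among the 23 genes with enough TPM.

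Among the listed methyl writers under the symbol rule, only Suz12 had a row at 10 TPM or more. Suz12, a core subunit of Polycomb repressive complex 2 that methylates histone H3, stood at 76.6 TPM in aged-sec, 81.6 TPM in aged and 53.3 TPM in young oocytes. Kmt2c, the MLL3 enhancer methyltransferase, stood at 8.77 TPM in aged-sec, 9.24 TPM in aged and 6.46 TPM in young oocytes. Summed over its listed rows, Kmt2c stood at 20.6 TPM in aged-sec, 23.0 TPM in aged and 13.9 TPM in young oocytes. Kmt2e and Kmt2a were listed below 0.5 TPM in each library. In both Suz12 and Kmt2c the aged-sec value lay close to aged and above young.

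Setdb1, which methylates histone H3 to silence retrotransposons and is needed in the mouse oocyte for meiosis, had the second largest aged over young ratio among genes at 1 TPM or more. It stood at 2.40 TPM in aged-sec, 9.12 TPM in aged and 0.25 TPM in young oocytes (NM_001163642), with log2 ratios of 3.68 for aged over young and −1.73 for aged-sec over aged. These levels are under the 10 TPM of the size rule. Setd4 had a like pattern at lower level, with 1.14 TPM in aged-sec, 3.08 TPM in aged and 0.61 TPM in young oocytes. Setd3, an actin histidine methyltransferase rather than a histone enzyme, stood at 1.74 TPM in aged-sec, 2.96 TPM in aged and 2.44 TPM in young oocytes, lowest in the aged-sec library. Setd6, which methylates non-histone proteins, stood at 1.20, 1.15 and 0.62 TPM in aged-sec, aged and young oocytes, and Setd5 stayed below 0.5 TPM in each.

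Of the 4 listed Hdac genes, Hdac2, an abundant class I enzyme of the mouse oocyte that removes acetyl groups from histones, was the only one above 1 TPM. It stood at 18.5 TPM in aged-sec, 22.2 TPM in aged and 17.8 TPM in young oocytes, so aged-sec was close to young. Hdac6, Hdac8 and Hdac9 ranged from 0.42 to 0.84 TPM in aged-sec, from 0.53 to 0.55 TPM in aged and from 0.14 to 0.22 TPM in young oocytes. Of 11 annotated genes with an Hdac symbol 4 were listed, and the level of the others was not analysed here.

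The demethylases were the largest group of erasers, with 10 of 18 annotated Kdm genes listed. In aged-sec oocytes 7 of the 10 lay below aged, near the 72.5% of all symbols that did. With rows scaled to a common median 5 of 10 did, and the scaled share of all symbols was not computed. Kdm6a, the X-linked UTX enzyme that opposes Polycomb, stood at 52.4 TPM in aged-sec, 48.9 TPM in aged and 36.4 TPM in young oocytes, and was highest in the aged-sec library. Kdm7a stood at 32.6 TPM in aged-sec, 32.8 TPM in aged and 22.2 TPM in young oocytes, with no visible difference between the aged-sec and aged libraries.

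Kdm1a, the LSD1 demethylase needed in the mouse oocyte for meiotic arrest, stood at 12.4 TPM in aged-sec, 18.5 TPM in aged and 11.2 TPM in young oocytes. Its log2 ratio of aged-sec over aged was −0.56, and aged-sec was close to young. Its relative Kdm1b, which the mouse oocyte needs to set maternal imprints, had a like order at 4.88 TPM in aged-sec, 6.09 TPM in aged and 4.61 TPM in young oocytes. Kdm2b, a CpG-binding demethylase tied to Polycomb, stood at 9.61, 13.0 and 10.8 TPM in aged-sec, aged and young oocytes and was lowest in the aged-sec library. Kdm4a, a maternal factor of the mouse embryo, stood at 5.19 TPM in aged-sec, 7.49 TPM in aged and 4.58 TPM in young oocytes.

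The Kdm5 demethylases, which act on methylated histone H3 at promoters, differed in their order across the libraries. Kdm5b stood at 3.65 TPM in aged-sec, 3.28 TPM in aged and 2.02 TPM in young oocytes. Kdm5c, by contrast, stood at 0.38 TPM in aged-sec, 1.71 TPM in aged and 1.39 TPM in young oocytes, lowest in the aged-sec library. Kdm5a was listed at 0.30, 0.31 and 0.25 TPM in aged-sec, aged and young oocytes, and Kdm2a at 1.64, 0.97 and 0.29 TPM. Phf8 and Phf2, demethylases named for their PHD finger, stood at 6.57 and 1.76 TPM in aged-sec, 7.19 and 2.62 TPM in aged, and 4.01 and 1.82 TPM in young oocytes.

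Of 13 annotated Smarc genes, which encode SWI/SNF subunits and related ATPases, 6 were listed. Smarca2, the BRM ATPase, stood at 29.9 TPM in aged-sec, 25.9 TPM in aged and 20.7 TPM in young oocytes. Smarca4, the BRG1 ATPase that the mouse embryo inherits from the egg for genome activation, had a predicted transcript at 1.71 TPM in aged-sec, 1.98 TPM in aged and 1.27 TPM in young oocytes. The level of Smarca2 was thus above that of Smarca4 among the listed rows, while the other transcripts of Smarca4 were not analysed here. Smarcad1, an ATPase outside SWI/SNF, stood at 14.9 TPM in aged-sec, 15.6 TPM in aged and 12.7 TPM in young oocytes. Smarcc2 and Smarcal1 were near 1 TPM, at 0.94 and 0.87 TPM in aged-sec, 1.42 and 1.44 TPM in aged, and 0.63 and 0.99 TPM in young oocytes. Smarca1, the SNF2L ATPase, was below 0.2 TPM in each library.

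The Arid genes, which encode DNA-binding proteins, several of them subunits of chromatin complexes, were low. Arid3b stood at 0.72 TPM in aged-sec, 1.65 TPM in aged and 0.36 TPM in young oocytes, and Arid4b, a subunit of the SIN3 deacetylase complex, at 1.14, 1.56 and 0.57 TPM. In both the aged value was the highest, and aged-sec lay between aged and young. Arid1b and Arid5a were below 0.5 TPM in each library.

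The Chd remodelers differed little between the aged-sec and aged libraries at their most abundant members. Chd6 stood at 12.3 TPM in aged-sec, 12.5 TPM in aged and 9.24 TPM in young oocytes, and Chd8, a remodeler linked to autism in humans, at 10.4, 10.7 and 8.80 TPM. Chd9 stood at 7.02 TPM in aged-sec, 5.25 TPM in aged and 2.82 TPM in young oocytes. It was the only Chd gene above its aged value in aged-sec oocytes with TPM as deposited. With rows scaled to a common median 4 of 6 were above their aged value, and the scaled share of all symbols was not computed. Chd7, mutated in human CHARGE syndrome, stood at 2.05, 2.14 and 1.11 TPM, and Chd2 at 0.79, 1.18 and 0.81 TPM in aged-sec, aged and young oocytes. Chdh, which the symbol rule also takes in, encodes choline dehydrogenase and not a remodeler, and stood at 1.08, 1.62 and 0.72 TPM.

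Atrx, an X-linked remodeler that the mouse oocyte needs at pericentric heterochromatin for chromosome alignment, differed little between the aged-sec and aged libraries. It stood at 92.8 TPM in aged-sec, 96.0 TPM in aged and 74.9 TPM in young oocytes. Its log2 ratio was −0.048 for aged-sec over aged and 0.36 for aged over young. Nfrkb showed a larger distance from young, as given above, while its aged-sec value of 58.4 TPM lay 0.18 on the log2 scale under its aged value of 66.3 TPM.

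The bromodomain readers followed Brdt at much lower levels. Brd7, a subunit of the PBAF form of SWI/SNF, stood at 62.9 TPM in aged-sec, 76.6 TPM in aged and 56.3 TPM in young oocytes. Brd2, a BET reader like Brdt, stood at 16.0 TPM in aged-sec, 19.8 TPM in aged and 13.2 TPM in young oocytes. Brd9, of the noncanonical form of SWI/SNF, stood at 11.1 TPM in aged-sec, 14.1 TPM in aged and 10.9 TPM in young oocytes. In each of these 3 genes aged was the highest and aged-sec lay between aged and young. Brd3, another BET gene, was below 0.3 TPM in each.

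Atad2 was read at 15.4 TPM in the aged library alone. The aged-sec and young libraries both held 0.01 TPM, so no ratio between these libraries can be given a size beyond the rounding of the table. The annotation GRCm38.p6 holds 1 mRNA and 1 non-coding transcript for it, and whether reads were divided between them was not tested.

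PHD finger genes were the most numerous, with 11 of 22 annotated Phf symbols listed. In aged-sec oocytes 10 of the 11 lay below aged, where 72.5% of all symbols did. With rows scaled to a common median 4 of 11 did, and the scaled share of all symbols was not computed. Phf5a, which encodes a subunit of the SF3b splicing complex rather than a histone reader, stood at 127 TPM in aged-sec, 142 TPM in aged and 101 TPM in young oocytes. Phf6 stood at 49.9 TPM in aged-sec, 58.1 TPM in aged and 28.0 TPM in young oocytes. Phf3, a PHD protein that binds RNA polymerase II, stood at 45.5 TPM in aged-sec, 47.7 TPM in aged and 31.6 TPM in young oocytes. Phf7, a ubiquitin ligase known from mouse spermatids, stood at 15.1, 20.6 and 12.2 TPM in aged-sec, aged and young oocytes.

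In these 4 genes the aged-sec value lay between aged and young. On the rows used, Phf13 was the only gene of the family above its aged value in aged-sec oocytes. It stood at 7.66 TPM in aged-sec, 5.97 TPM in aged and 3.07 TPM in young oocytes. Phf20, a reader in the NSL acetyltransferase complex, and its relative Phf20l1 stood at 2.12 and 1.83 TPM in aged-sec, 2.70 and 2.20 TPM in aged, and 1.38 and 1.65 TPM in young oocytes. Summed over its listed rows, Phf20l1 stood at 3.65 TPM in aged-sec, 3.58 TPM in aged and 2.14 TPM in young oocytes, slightly above aged. Phf14 and Phf21a were below 0.3 TPM in each library.

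Several genes had more than 1 listed transcript, and these did not all have the same order across the libraries. Of the 61 genes 24 had at least 2 rows, and in 13 of the 24 the rows lay on both sides of their aged value in the aged-sec library. Of the 61 genes 55 have several annotated mRNAs, and 25 of the rows used are predicted transcripts. How the quantification shared reads among overlapping transcripts is unknown, so a single row is uncertain as a measure of its gene.

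Crebbp is the clearest case. Its curated row stood at 12.9 TPM in aged-sec and 26.1 TPM in aged oocytes, while its predicted row XM_006521751 stood at 14.8 TPM in aged-sec, 10.4 TPM in aged and 3.66 TPM in young oocytes. Summed, the rows gave 27.6 TPM in aged-sec, 36.5 TPM in aged and 12.4 TPM in young oocytes. The sum had a log2 ratio of aged-sec over aged of −0.40, against −0.99 for the curated row, and of aged-sec over young of 1.13, against 0.54. On the sum, Crebbp thus met the size rule between aged-sec and young oocytes, which it did not on the curated row.

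Nfrkb had 6 listed rows. Next to its main row, XM_030244286 stood at 20.8 TPM in aged-sec, 38.0 TPM in aged and 11.0 TPM in young oocytes. The row XM_006510219 stood at 0.59 TPM in aged-sec, 16.6 TPM in aged and 11.3 TPM in young oocytes, low in the aged-sec library alone. Summed over its rows, Nfrkb stood at 85.6 TPM in aged-sec, 129 TPM in aged and 50.0 TPM in young oocytes, with a log2 ratio of aged-sec over aged of −0.59, against −0.18 for the main row. The summed log2 ratio of aged-sec over young was 0.77, under the size limit that the main row passed at 1.29.

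Smarca2 had rows that differed in the same manner. Its main row was highest in the aged-sec library, while XM_030251047 stood at 10.6 TPM in aged-sec, 20.1 TPM in aged and 10.7 TPM in young oocytes. The sum of its 4 rows was 44.4 TPM in aged-sec, 50.0 TPM in aged and 34.0 TPM in young oocytes, so in aged-sec oocytes the summed value lay below aged while the main row lay above it. For Suz12 the lower row NM_001163018 stood at 12.4 TPM in aged-sec, 8.54 TPM in aged and 6.18 TPM in young oocytes, and the sums of 88.9 TPM in aged-sec and 90.2 TPM in aged oocytes were close. Summed over its rows, Brdt stood at 1013 TPM in aged-sec, 1103 TPM in aged and 792 TPM in young oocytes.

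**Figure D3:**
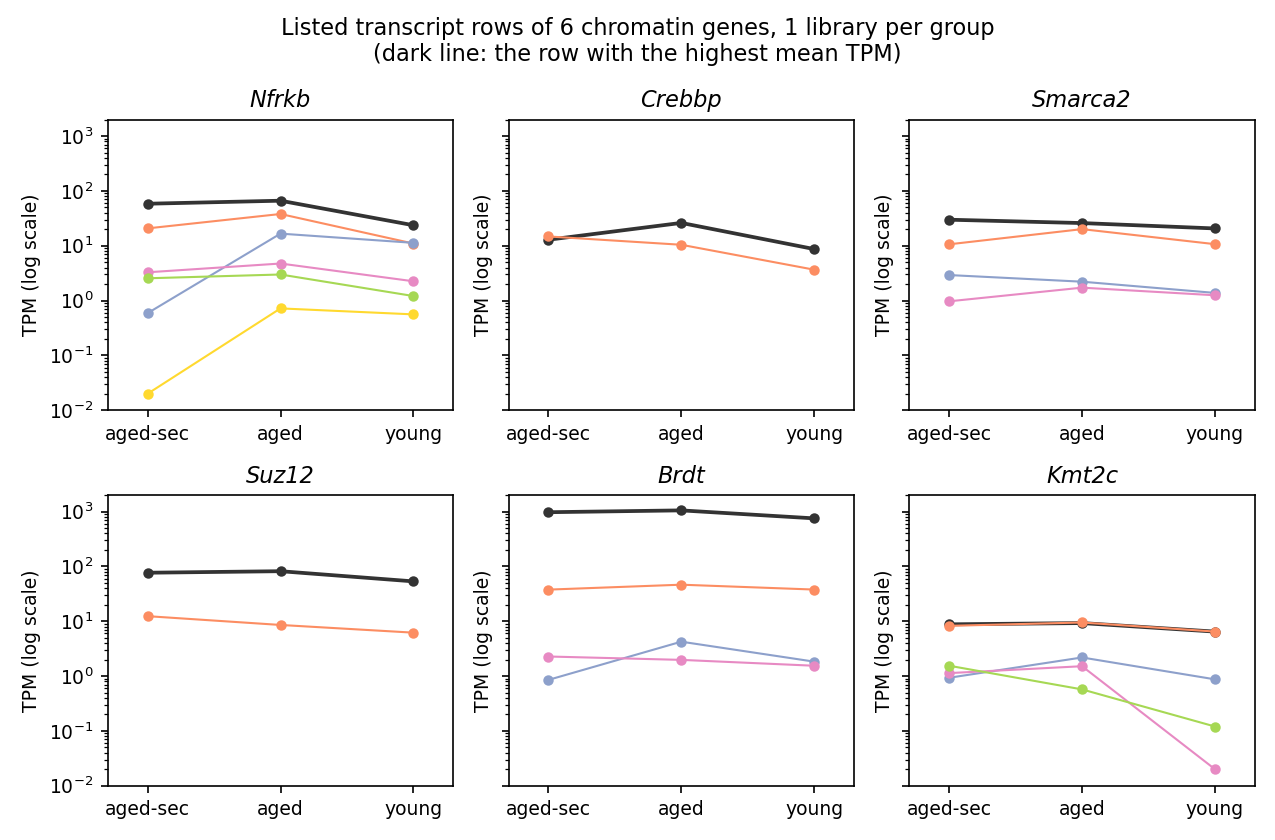
TPM on a log axis of each listed transcript row of Nfrkb, Crebbp, Smarca2, Suz12, Brdt and Kmt2c in the aged-sec, aged and young libraries; each line is a row, and the dark line is the row used. In Crebbp the rows cross, at 12.9 and 14.8 TPM in aged-sec against 26.1 and 10.4 TPM in aged oocytes, and in Nfrkb a row stands at 0.59 TPM in aged-sec against 16.6 TPM in aged oocytes.

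Other chromatin genes were taken from a list that holds Polycomb, DNA methylation, histone chaperone, acetyltransferase and corepressor genes. Of these 58 were listed, or 49.6% of 117 annotated, as were 53.0% of the 115 annotated genes under the symbol rule and 27.3% of all protein-coding symbols. The 53.0% takes in Crebbp, Atrx, Suz12, Atad2 and Nfrkb, which were added by name and are all listed. The 27.3% counts genes whatever their level in the oocyte. These shares are thus no measure of an excess of chromatin genes in the table. At 10 TPM or more, 2 of 19 met the size rule in the age comparison, where 15.9% of all symbols did. Between aged-sec and aged oocytes 0 of 19 met it in either direction, where 0.168% of all symbols did upward and 2.18% downward. The 2 were Ss18, a SWI/SNF subunit (15.5 TPM in aged-sec, 12.1 TPM in aged and 0.67 TPM in young oocytes), and Zmynd8, a bromodomain reader (156, 134 and 60.9 TPM). At 1 TPM or more, 36 of 48 lay below aged in aged-sec oocytes, where 73.8% of all symbols did, with a median log2 ratio of −0.30. With rows scaled to a common median it was −0.037, and the scaled median over all symbols was not computed.

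The most abundant of these were Dpy30, a shared subunit of the Kmt2 complexes, at 4989 TPM in aged-sec, 4831 TPM in aged and 3932 TPM in young oocytes, and Rbbp7, a histone-binding subunit of several deacetylase and Polycomb complexes, at 2022, 2820 and 2001 TPM. Dpy30 was thus close in the aged-sec and aged libraries, and Rbbp7 in aged-sec was close to young. Ing1, a PHD subunit of the SIN3 complex, stood at 274, 314 and 261 TPM in aged-sec, aged and young oocytes. Bmi1, a Polycomb repressive complex 1 subunit, stood at 253, 258 and 159 TPM, and Sin3a, the corepressor scaffold, at 85.6, 113 and 93.1 TPM.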

How the data were processed

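Poly(A) cDNA of 3 pooled oocyte libraries was analysed. The authors deposited TPM for transcripts, per the file headers, although the table is named for raw counts, and the ratios aged over young and aged-sec over aged; these ratios equal the TPM quotients within a relative difference of 6.64e-07. No source used here names the aligner, the quantification program or the genome build. TPM keeps no depth. The listed rows sum to 321460 TPM in aged-sec, 324814 TPM in aged and 229243 TPM in young oocytes.

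Log2 ratios used 0.5 TPM added to each value, with pandas 2.3.3 and numpy 2.4.6. No test was possible with 1 library per group. Functions were tested on simulated data. Named genes were those at 10 TPM or more, those under the size rule, those named in the selection and the 2 most abundant of each family; other genes were added after their values were seen. The members and lists were chosen with earlier results of these data known. Alternatives were other pseudocounts, summed or curated rows, scaling to a common median, other filters and, chosen after seeing the data, leaving out Chdh and Phf5a. Accessions were matched to RefSeq GRCm38.p6 and GENCODE M21 for annotation and 3' ends only. Values of some genes that the rule takes in are not reported here.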

Additional observations from a re-analysis of the deposited data

How the results depend on the processing

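Of 86 values recomputed under alternatives, 66 stayed within 1.5 times, the medians among them with the same sign. This tally is no measure of robustness. It takes in counts of 0 that stayed 0, and unscaled aged over young medians, whose sign is set by the selection of the table. Scaling all listed rows to the same median, which removes the median log2 ratios of all rows, 0.78 for aged over young and −0.29 for aged-sec over aged, turned 2 medians of the chromatin genes round, to −0.16 and 0.063. It left a median of 0.035 for aged-sec over young and of −0.037 for the other chromatin genes against aged, and 21 members below aged in aged-sec oocytes. Under this scaling the medians and the share below aged over all symbols were not computed, so these medians and this count have no background. The size rule then called 1 of 24 genes, Atad2, for aged over young (2.61% of all symbols) and 0 of 23 upward for aged-sec over young (3.96%). With 1 TPM in place of 10 TPM in the higher library, 7 of 47 genes met it for aged over young (18.2% of all symbols did), 4 of 48 downward for aged-sec over aged (6.81%), and of 43 genes 7 upward (14.1%) and 1 downward (1.18%) for aged-sec over young. At 1.5-fold in size, 9 of 23 met it for aged over young (44.4% of all symbols), and 1 upward (1.40%) and 2 downward (10.6%) of 23 for aged-sec over aged. With no pseudocount 2 of 23 met it downward (2.74%), since Crebbp joined Atad2. With curated rows 0 of 16 met it upward for aged-sec over young (11.4%). Nfrkb and Brd1 were then not among the genes with enough TPM. Brd1 has no curated row listed, and the curated row of Nfrkb stood at 3.28 TPM in aged-sec and 2.25 TPM in young oocytes. Detection at 10 TPM left 20 of 23 members below aged in aged-sec oocytes, and 14 of 19 other chromatin genes with a median of −0.20. Of all symbols at that level 74.0% lay below aged, with a median of −0.18. Curated rows left 22 of the other genes below aged, and the share of all symbols on curated rows was not computed. No paired analysis was possible because each group has 1 library, and none could be left out. Low TPM and unknown depth limit what the values under 1 TPM can show.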
